A study of Homo sapiens with 4 samples.

Results

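RNA of the MHC class II genes was measured in A375 cells, a human melanoma line whose genotype the labels give as WT. The cells were grown in DMEM with serum and kept for 48 h with 1 mM octanoate, a medium-chain saturated fatty acid, or with isopropanol, the vehicle. The genes described are the 10 given by symbol: CIITA, CD74, HLA-DRA, HLA-DRB1, HLA-DPA1, HLA-DPB1, HLA-DQA1, HLA-DQB1, HLA-DMA and HLA-DMB. All 10 were found among the 56832 genes of the deposited table of normalised counts, and all 10 were among the 20250 genes tested. Each group held 2 libraries, and nothing in the labels says whether the libraries of a group came from separate cultures, so the p-values measure the spread between these libraries only.

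MHC class II molecules are heterodimers of an alpha and a beta chain that carry peptides from the endolysosomal pathway to the cell surface, where CD4+ T cells read them. Their genes lie together in the HLA region and are switched on as a group by CIITA, a coactivator that does not bind DNA itself but docks onto RFX, CREB and NF-Y proteins bound to a conserved set of promoter boxes (S, X and Y). Most cells make CIITA only after exposure to interferon-gamma, whereas professional antigen-presenting cells and some melanomas make it constitutively.

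The X and Y boxes are shown here because they are the promoter feature that the alpha, beta and DM chain genes have in common. RefSeq promoter windows (GRCh38.p14, from 250 bases before to 50 bases after the gene start) were found for 8 of the 10 genes, with a window for each of 2 starts of HLA-DPA1. They were searched for AGNNACNGA, a stretch of the X box, and ATTGG, the core of the Y box (an inverted CCAAT), on both strands. These letters were chosen after the windows of the class II genes had been read. AGNNACNGA stood in 15.3% of 35116 promoter windows and ATTGG in 34.6%. The X letters followed by the Y letters on the gene strand, with 25 to 40 bases from the start of one to the start of the other, stood in 0.142% of windows (50 of 35116). Of the 8 genes, 4 had this arrangement, at a spacing of 33 or 34 bases: HLA-DRB1, HLA-DQA1, HLA-DQB1 and HLA-DMA. HLA-DPA1 and HLA-DMB had the X letters and no ATTGG at that spacing, and HLA-DPB1 and CD74 had ATTGG only. For HLA-DPA1 this holds for the window at chr6:33073600-33073899, from which its line below is taken. Its other window, at chr6:33080699-33080998, had neither the X nor the Y letters. Among the other class II genes, HLA-DOA and HLA-DRB5 had the arrangement as well. In the lines below capitals mark the X letters and, where present, the Y letters, and every sequence runs 5′ to 3′ on the strand of its gene.
HLA-DRB1, minus strand, chr6:32589884-32589933: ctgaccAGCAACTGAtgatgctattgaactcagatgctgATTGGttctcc
HLA-DQA1, plus strand, chr6:32637298-32637348: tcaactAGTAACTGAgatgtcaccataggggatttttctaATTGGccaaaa
HLA-DQB1, minus strand, chr6:32666735-32666784: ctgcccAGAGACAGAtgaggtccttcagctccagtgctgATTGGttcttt
HLA-DMA, minus strand, chr6:32953166-32953216: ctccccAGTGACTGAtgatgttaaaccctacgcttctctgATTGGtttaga
HLA-DOA, minus strand, chr6:33009648-33009698: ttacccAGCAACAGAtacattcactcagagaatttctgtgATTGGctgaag
HLA-DPA1, minus strand, chr6:33073704-33073754: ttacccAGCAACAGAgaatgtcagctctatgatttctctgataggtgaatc
HLA-DMB, minus strand, chr6:32941072-32941122: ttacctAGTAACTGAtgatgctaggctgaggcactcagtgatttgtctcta
A match of letters is a description of these windows and not a measured binding site.

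Reads of all 10 genes were present in every library, with vehicle as well as with octanoate. Mean counts ranged from among the highest of all genes (CD74, HLA-DRA) to that of HLA-DQA1, which stood above 42.5% of tested genes. Together the 10 genes took 0.189% and 0.179% of all reads with vehicle and 0.172% and 0.165% with octanoate, and CD74 alone made up between 56.0% and 56.9% of these reads. The libraries held between 67785956 and 78005035 recovered reads, and no member had fewer than 235 reads in a library. By mean normalised count CD74 ranked 94th of all listed genes and HLA-DRA 449th.

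Levels of different genes were compared as normalised counts per kilobase of merged exons in GENCODE 29, which matched all 10 symbols. The order of the mean levels per kilobase was CD74 (23184), HLA-DRA (19921), HLA-DRB1 (3417), HLA-DPA1 (2787), HLA-DMA (856), HLA-DPB1 (852), HLA-DQB1 (303), CIITA (191), HLA-DMB (155) and HLA-DQA1 (40.2). CD74 stood above 99.4% and HLA-DRA above 99.3% of 14149 tested protein-coding genes on this scale, whereas HLA-DQA1 stood above 21.0% of them. Over the 4 libraries the levels per kilobase of CD74 (21497 to 25488) and HLA-DRA (17775 to 21835) overlapped, as did those of HLA-DRB1 and HLA-DPA1 and those of HLA-DMA and HLA-DPB1. The levels of CIITA (178 to 200) and HLA-DMB (144 to 169) did not, nor did those of the other neighbours in this order. The order depends on the length used. Per kilobase of the longest coding transcript, HLA-DPA1 (9403) came before HLA-DRB1 (3417) and HLA-DMB (516) before CIITA (247). HLA-DQA1 has 6927 merged exon bases against 1591 in that transcript, which lowers its level per kilobase of merged exons. For CIITA both lengths were large (20757 and 16059 bases), so its level is low on both scales.

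**Figure D1:**
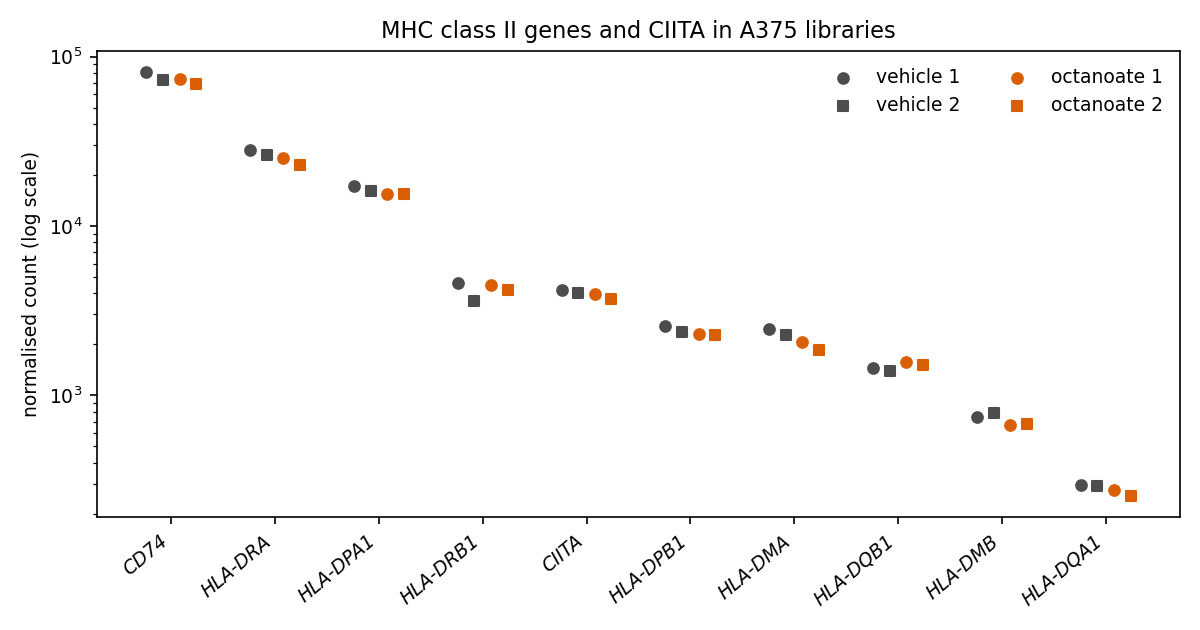
Normalised count (log axis) of each of the 10 genes in the 4 libraries, grey for vehicle and orange for octanoate, circles for replicate 1 and squares for replicate 2. Genes are ordered by mean count from CD74 to HLA-DQA1, HLA-DQB1 is the gene with both octanoate libraries above both vehicle libraries, and the vehicle libraries of HLA-DRB1 lie apart (4597 and 3584).

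To ask whether octanoate changed these genes, limma was fitted to the log2 normalised counts of all 20250 tested genes, with Benjamini-Hochberg adjustment and a threshold of 0.05. HLA-DMA and HLA-DRA were lower with octanoate, no member was higher, and 8 members were not called. edgeR and DESeq2 on the recovered reads called the same 2 members and no other. All the differences were small: the fitted log2 differences ran from -0.28 (HLA-DMA) to 0.12 (HLA-DQB1), with a median of -0.12 over the 10 genes against 0.01 over all tested genes. Among all tested genes 29.9% were called, 13.7% lower and 16.2% higher. The 2 of 10 members called were a share below 29.9%, but both were lower, a share above 13.7%. With only 10 genes, which are regulated together, neither comparison was read as a result. Of the 8 members with a mean of at least 1000, 2 were called, where 38.1% of all tested genes of that abundance were. The 95% confidence intervals of the 10 genes together reached from -25.4% to 19.8%. A change of 2-fold or more was therefore outside the interval of each member. In bulk RNA, fewer cells making a transcript and less transcript per cell cannot be told apart.

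CIITA, the master coactivator of the group, had 4159 and 4031 normalised counts in vehicle libraries 1 and 2, and 3976 and 3685 in octanoate libraries 1 and 2. Both octanoate libraries lay below both vehicle libraries, by a margin smaller than the gap between the 2 octanoate libraries. The mean went from 4095 ± 90.1 to 3830 ± 206 (SD, n = 2 each), and the log2 difference of -0.10 (SE 0.06, 95% interval -0.22 to 0.03) was not called (limma adjusted p 0.251) and stayed uncalled under each of the 14 alternative settings. The difference was -0.04 without octanoate 2 and -0.15 without octanoate 1.

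CD74 encodes the invariant chain, which blocks the peptide groove of new class II dimers and steers them to endolysosomes. It had 81154 and 72366 normalised counts with vehicle and 73307 and 68448 with octanoate. The groups overlapped, since octanoate library 1 was above vehicle library 2. The log2 difference of -0.11 (SE 0.07, 95% interval -0.25 to 0.02) was not called (limma adjusted p 0.214). It depended on single libraries: it was -0.20 and called lower without vehicle 2 (limma adjusted p 0.0345), but -0.03 without vehicle 1 (limma adjusted p 0.800) and -0.06 without octanoate 2 (limma adjusted p 0.701).

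HLA-DRA and HLA-DRB1 encode the alpha and beta chains of HLA-DR, the class II molecule that most cells make in the largest amount. HLA-DRA had 27949 and 26121 normalised counts with vehicle and 25176 and 22752 with octanoate, so that both octanoate libraries were below both vehicle libraries. Its mean fell from 27035 ± 1292 (SD, n = 2) to 23964 ± 1714 (SD, n = 2), a log2 difference of -0.17 (SE 0.06, 95% interval -0.30 to -0.05, limma adjusted p 0.0341). In the authors' deposited table the log2 fold change of HLA-DRA was -0.17 with an adjusted p of 0.0289. The call was lost without vehicle 1 (log2 difference -0.13, limma adjusted p 0.217) and without octanoate 2 (-0.10, limma adjusted p 0.430), and also with TMM rescaling, with no filter and without a trend in the variance prior.

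HLA-DRB1 did not follow HLA-DRA. It had 4597 and 3584 normalised counts with vehicle and 4455 and 4165 with octanoate, so that both octanoate libraries lay between the vehicle libraries. The log2 difference was 0.09 (SE 0.08, 95% interval -0.08 to 0.25, limma adjusted p 0.461). This value rested on which vehicle library was used: it was 0.27 without vehicle 1 (limma adjusted p 0.0124) and -0.09 without vehicle 2 (limma adjusted p 0.408). It was 0.04 without octanoate 1 and 0.13 without octanoate 2. The longest coding transcript of HLA-DRB1 shares 1192 bases at 92.4% identity with HLA-DRB5 and 1041 bases at 87.3% with HLA-DRB6, a pseudogene, and HLA genes are highly polymorphic. The counts of this family are therefore uncertain, since reads may be divided among its members. The summed normalised counts of HLA-DRB1, HLA-DRB5 and HLA-DRB6 were 6085 and 5028 with vehicle and 6018 and 5630 with octanoate, with the octanoate libraries again between the vehicle libraries.

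HLA-DPA1 and HLA-DPB1 encode the chains of HLA-DP. HLA-DPA1 had 17205 and 16046 normalised counts with vehicle and 15478 and 15361 with octanoate, a log2 difference of -0.11 (SE 0.06, adjusted p 0.165 in limma). HLA-DPB1 had 2572 and 2379 with vehicle and 2300.5 and 2262 with octanoate, a log2 difference of -0.12 (SE 0.07, adjusted p 0.188 in limma). Both octanoate libraries were below both vehicle libraries for each gene, and neither gene was called. Without vehicle 1 the log2 differences were -0.06 for each of HLA-DPA1 and HLA-DPB1. The ratio of HLA-DPA1 to HLA-DPB1 normalised counts, which is not corrected for length, was 6.69 and 6.74 with vehicle and 6.73 and 6.79 with octanoate. Exons of these genes overlap on opposite strands over 96 bases in GENCODE 29, and whether the counting used strand is not given in the sources used here.

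HLA-DQA1 and HLA-DQB1, the chains of HLA-DQ, had differences of opposite sign. HLA-DQA1 had 293 and 289.7 normalised counts with vehicle and 277 and 255 with octanoate, a log2 difference of -0.13 (SE 0.11, adjusted p 0.414 in limma). HLA-DQB1 had 1453 and 1399 with vehicle and 1574 and 1519 with octanoate, a log2 difference of 0.12 (SE 0.07, adjusted p 0.220 in limma). Neither was called, although the groups did not overlap for either gene. Without octanoate 2 the log2 difference of HLA-DQA1 was -0.07. The ratio of HLA-DQB1 to HLA-DQA1 normalised counts was 4.95 and 4.83 with vehicle and 5.68 and 5.97 with octanoate. The groups did not overlap. The difference in this ratio was not tested. HLA-DQA1 shares 1539 bases at 89.9% identity with HLA-DQA2, HLA-DQB1 shares 1224 bases at 85.3% with HLA-DQB2, and HLA-DQB1 overlaps the antisense gene HLA-DQB1-AS1 over 241 exon bases.

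HLA-DMA and HLA-DMB form HLA-DM, which stays in endolysosomes and exchanges the invariant chain fragment in the groove for other peptides. HLA-DMA had 2478 and 2271 normalised counts with vehicle and 2072 and 1852 with octanoate. Both octanoate libraries were below both vehicle libraries. Its mean fell from 2375 ± 147 to 1962 ± 156 (SD, n = 2 each), the largest relative difference among the 10 genes, with a log2 difference of -0.28 (SE 0.07, 95% interval -0.42 to -0.13, limma adjusted p 0.00440). In the authors' deposited table HLA-DMA had a log2 fold change of -0.27 and an adjusted p of 0.0107. Of all tested genes, 36.7% had an absolute log2 difference of at least this size. The call of HLA-DMA was lost without vehicle 1 (log2 difference -0.21, limma adjusted p 0.0829) and without octanoate 2 (-0.19, limma adjusted p 0.0978), with no filter (adjusted p 0.126) and without a trend in the variance prior (adjusted p 0.167).

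HLA-DMB had 747 and 787 normalised counts with vehicle and 671 and 678 with octanoate, with both octanoate libraries below both vehicle libraries. The log2 difference of -0.18 (SE 0.08, 95% interval -0.36 to -0.01) had an unadjusted limma p of 0.0370 and was not called (adjusted p 0.101). The ratio of HLA-DMA to HLA-DMB normalised counts was 3.32 and 2.89 with vehicle and 3.09 and 2.73 with octanoate, so that the groups overlapped. In GENCODE 29 both genes share exon bases on the same strand with the gene model AL645941.2, over 174 bases of HLA-DMA and 438 of HLA-DMB, which makes the counts of both uncertain.

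**Figure D2:**
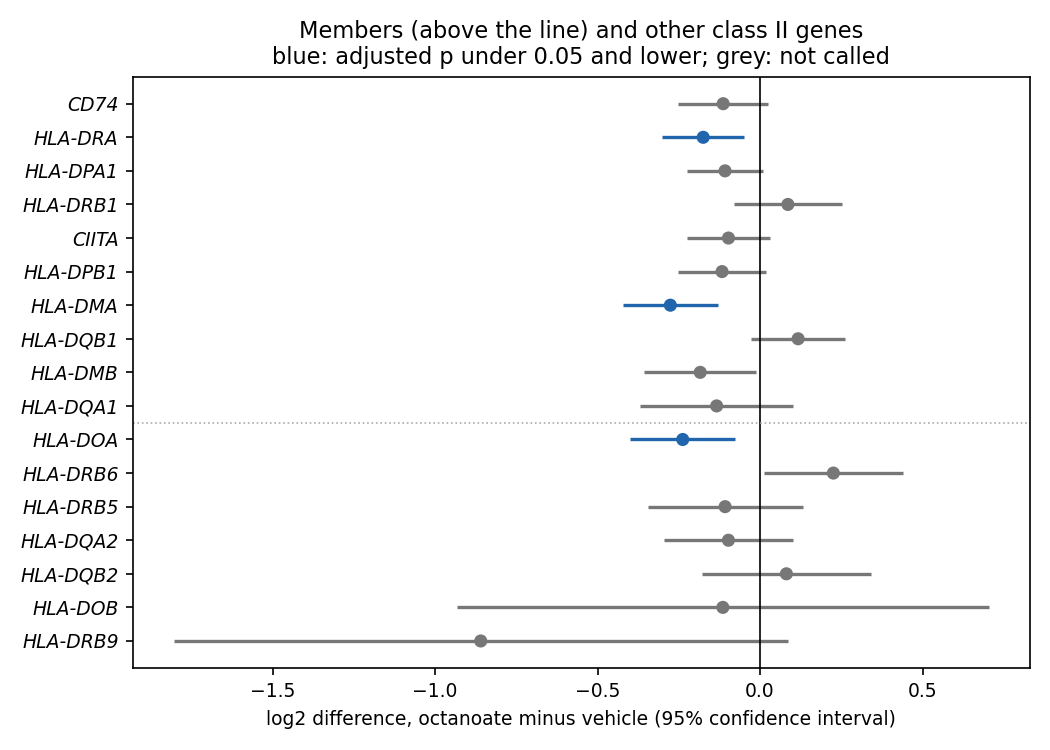
Log2 difference between octanoate and vehicle on the log2(normalised count + 1) scale, with its 95% confidence interval from limma, for the 10 genes above the dotted line and the 7 other tested class II genes below it. HLA-DRA, HLA-DMA and HLA-DOA (blue) were called lower, and the widest intervals belong to HLA-DOB and HLA-DRB9, which had the lowest counts.

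Of the 10 genes, 8 had a negative log2 difference, where 50.7% of all tested genes had a positive one. These genes are regulated together and are not independent observations. For 8 of the 10 the groups did not overlap, 7 lower and 1 higher with octanoate, while 63.1% of all tested genes had groups that did not overlap, 30.5% lower. Particular libraries stood at the ends: vehicle 1 held the highest value of 8 members and octanoate 2 the lowest of 7, against 31.7% and 28.2% of all tested genes. The median log2 difference of the 10 genes was -0.07 without vehicle 1 and -0.09 without octanoate 2, and the part of these libraries in the lower values was not tested further. The authors' deposited table also called 2 of the 10 genes, HLA-DMA and HLA-DRA, at a DESeq2 adjusted p under 0.05. It called 12.9% of its 33533 genes, which include genes with very few reads, such as CD3E with a mean of 1.97. The lowest mean of a member was 279 (HLA-DQA1), so these shares are not for genes of like abundance.

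**Figure D3:**
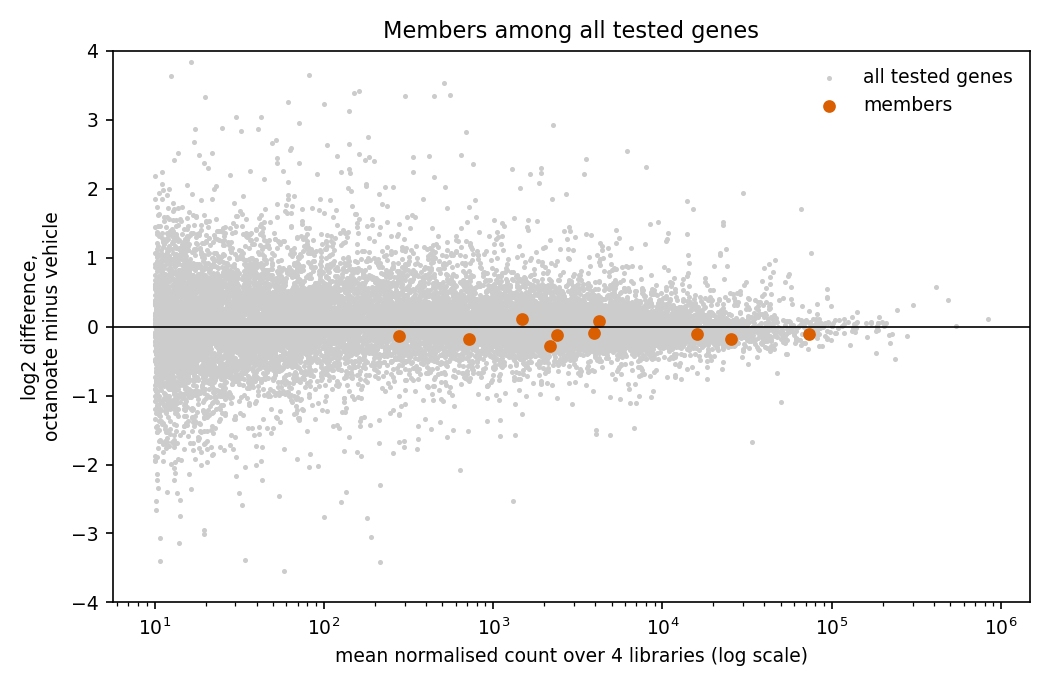
Log2 difference between octanoate and vehicle against mean normalised count (log axis) for the 20250 tested genes in grey and the 10 members in orange. The 10 points lie between -0.28 and 0.12, near the centre of the cloud at their abundance, and 5 genes beyond 4 in absolute value are outside the axis.

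Among the other genes of the class II region, HLA-DOA, which encodes a chain of HLA-DO, an inhibitor of HLA-DM, was called lower. It had 1011 and 990.1 normalised counts with vehicle and 827 and 870.2 with octanoate, a log2 difference of -0.24 (SE 0.08, adjusted p 0.0232 in limma). Both octanoate libraries were below both vehicle libraries. The call was lost with DESeq2 on the recovered reads (adjusted p 0.0527), and the authors' deposited table did not call HLA-DOA (DESeq2 adjusted p 0.0915). The call was also lost without a trend in the variance prior, with no filter, and when vehicle 1, vehicle 2 or octanoate 1 was left out. The partner chain HLA-DOB had only 24.5 and 15.5 normalised counts with vehicle and 13.5 and 23.8 with octanoate, and its difference was not detectable at this depth (log2 difference -0.11, 95% interval -0.93 to 0.70). Of the 9 other class II genes and pseudogenes listed, 7 were tested, 1 was called lower and none higher, with a median log2 difference of -0.11.

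The factors that hold CIITA on class II promoters were next compared. None of the 7 genes of RFX5, RFXAP, RFXANK, NFYA, NFYB, NFYC and CREB1 was called by limma, edgeR or DESeq2, and none had an unadjusted limma p under 0.05. Their median log2 difference was -0.05. RFX5, the DNA-binding RFX subunit, had 8885 and 8420 normalised counts with vehicle and 8794 and 9183 with octanoate (log2 difference 0.06, SE 0.06, limma adjusted p 0.516).

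Of 6 coactivators with which CIITA is known to work, 2 were called lower by limma and none higher, with a median of -0.13, while edgeR and DESeq2 called 3 each. The additional gene was SMARCA4, a chromatin remodelling ATPase, with 28999.7 and 27662 normalised counts with vehicle and 25715 and 25703 with octanoate. Its log2 difference was -0.14 (SE 0.06), with an adjusted p of 0.0673 by limma, 0.0323 by edgeR and 0.0110 by DESeq2, and of 0.0364 in the authors' deposited table. KAT2B, the acetyltransferase PCAF, had 2514 and 2600.4 normalised counts with vehicle and 1672 and 1697 with octanoate, and fell by 0.60 on the log2 scale (SE 0.06, adjusted p 1.14e-07 in limma). CREBBP, the acetyltransferase CBP, had 5951 and 6247 with vehicle and 4959 and 4919 with octanoate, a log2 difference of -0.30 (SE 0.06, adjusted p 0.000272 in limma). Both octanoate libraries were below both vehicle libraries for each of these 3 genes. KAT2B was called under all 14 alternative settings and CREBBP under 13, the exception being the fit without a trend in the variance prior (adjusted p 0.0791 in limma).

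The route from interferon-gamma to CIITA runs through the receptor, the kinases JAK1 and JAK2 and, further down, IRF1, which with USF1 binds the interferon-responsive CIITA promoter. Of 11 genes on this list 10 were tested, 1 was called higher and 3 lower, with a median of -0.10. edgeR called 4 of them and DESeq2 3. USF1 had 5611 and 5236 normalised counts with vehicle and 4554 and 4509 with octanoate, a log2 difference of -0.26 (SE 0.06, adjusted p 0.00175 in limma). IRF2, another interferon regulatory factor, and JAK1 were called lower (log2 differences -0.19 and -0.16, limma adjusted p 0.0248 and 0.0450), and JAK2 was called higher (0.21, limma adjusted p 0.0396). JAK2 was not called by DESeq2 on the recovered reads (adjusted p 0.106). In the authors' deposited table neither JAK2 (DESeq2 adjusted p 0.124) nor IRF2 (0.051) was called. JAK1 and JAK2 lost their calls when any 1 of the 4 libraries was left out, and of these 4 fits IRF2 kept its call only in that without vehicle 2.

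IRF1 had 573 and 564 normalised counts with vehicle and 506 and 506 with octanoate (log2 difference -0.17, SE 0.09, limma adjusted p 0.173). Its groups did not overlap, and it was not called. IFNG itself, the gene for the cytokine, had 2.94 and 2.91 normalised counts with vehicle, was listed at 0 in both octanoate libraries and was below the filter.

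MHC class I genes, which present peptides from the cytosol, were compared because their coactivator NLRC5 is a relative of CIITA. NLRC5 had 914 and 924 normalised counts with vehicle and 1090 and 1030 with octanoate, a log2 difference of 0.20 (SE 0.08, adjusted p 0.0468 in limma), and lost its call when any 1 library was left out. B2M, the light chain of class I molecules, had 41219 and 40389 with vehicle and 42420 and 38693 with octanoate (log2 difference -0.01, SE 0.06, limma adjusted p 0.922; between -0.08 and 0.06 over the alternatives, which put it on either side of 0). Of 10 genes on this list 1 was called higher and 1 lower (TAPBP, which bridges class I molecules and the peptide transporter, at -0.19, limma adjusted p 0.0263), with a median of 0.05. edgeR called 4 genes of this list and DESeq2 1, TAPBP. NLRC5 was not called by DESeq2 on the recovered reads (adjusted p 0.120) nor in the authors' deposited table (DESeq2 adjusted p 0.147). TAPBP lost its call without vehicle 1, octanoate 1 or octanoate 2.

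**Figure D4:**
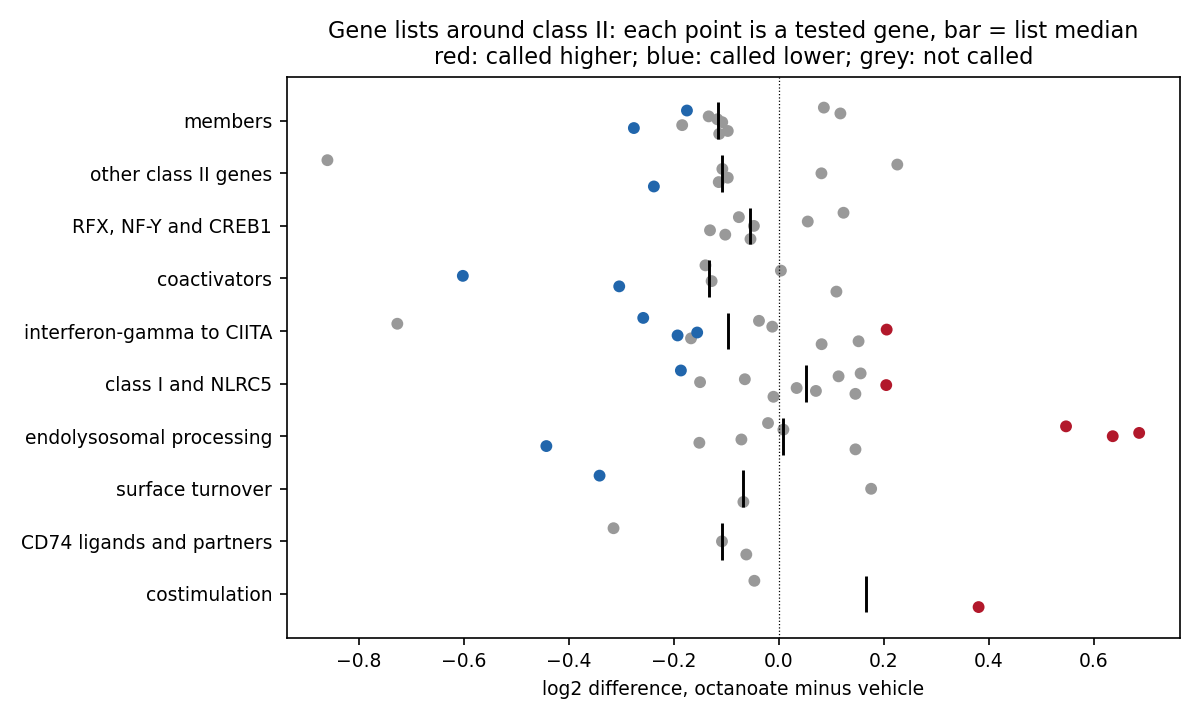
Log2 difference between octanoate and vehicle for each tested gene (points) of the 10 members, CIITA included, and of 9 lists around them, with the list median as a bar. Red points were called higher and blue points lower, and the largest called rises belong to the endolysosomal genes CTSS, CTSL and LGMN.

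The proteases that degrade the invariant chain and make class II peptides in endolysosomes included genes with larger fitted differences than any of the 10 members. Of 9 genes on this list 3 were called higher and 1 lower by limma, and edgeR and DESeq2 called 5 each. CTSS, whose product cathepsin S makes the last cuts in the invariant chain in antigen-presenting cells, rose from 141 and 128 normalised counts with vehicle to 243 and 194 with octanoate, a log2 difference of 0.69 (SE 0.15, adjusted p 0.000786 in limma). CTSL, encoding cathepsin L, which takes this role in the thymic epithelium of mice, rose from 9074 and 8781 to 13816 and 13924. Its log2 difference was 0.64 (SE 0.06, adjusted p 3.58e-09 in limma).

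LGMN, encoding the asparagine-specific endopeptidase legumain, rose from 1210.2 and 1092 normalised counts to 1658 and 1701, a log2 difference of 0.55 (SE 0.07, adjusted p 3.06e-06 in limma). CTSD, encoding the aspartic protease cathepsin D, fell from 3573 and 3152 to 2589 and 2354, a log2 difference of -0.44 (SE 0.07, adjusted p 2.76e-05 in limma). The groups did not overlap for any of these 4 genes. CTSL and LGMN were called under all 14 alternatives, CTSD under 13 and CTSS under 12. IFI30, the thiol reductase GILT, had between 9.63 and 13.0 normalised counts in the 4 libraries, and its difference was not detectable at this depth.

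Genes of class II turnover, signalling and co-stimulation were few. MARCH8, whose product belongs to the family of ubiquitin ligases that remove class II molecules from the surface, had 1472 and 1540.4 normalised counts with vehicle and 1194 and 1183 with octanoate, a log2 difference of -0.34 (SE 0.07, adjusted p 0.000675 in limma). MARCH1 and CD83 were tested and not called. Of the ligands and partners of surface CD74, MIF, DDT and CD44 were tested and not called, and CXCR2 and CXCR4 were below the filter. The log2 difference of CD44 was -0.06 (95% interval -0.18 to 0.06), with 41789 to 49555 reads per library. MIF had only 24 to 39 reads per library and DDT 47 to 59. Their log2 differences were -0.31 (95% interval -0.91 to 0.28) and -0.11 (-0.57 to 0.35). These low counts limit what can be said of MIF and DDT, and why they were low was not tested. CD40, a receptor through which T cells activate antigen-presenting cells, rose from 479 and 427 normalised counts to 543 and 639, a log2 difference of 0.38 (SE 0.10, adjusted p 0.00550 in limma), a call that was lost without vehicle 2 and without octanoate 2. The co-stimulatory ligands CD80 and CD86 had at most 6.50 normalised counts in any library.

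The identity of the cells was checked against marker lists. Of 8 melanocyte lineage markers 7 were tested. SOX10, a lineage transcription factor, was abundant, with 41363 and 37790.4 normalised counts with vehicle and 39112 and 34072 with octanoate, whereas the pigment enzyme gene TYR had between 1.93 and 3.93. MITF and S100B were lower with octanoate (log2 differences -0.48 and -1.12, limma adjusted p 2.33e-06 and 9.15e-12). PMEL was higher (log2 difference 0.55, limma adjusted p 0.0289), a call lost when any 1 library was left out. PMEL was not called by DESeq2 on the recovered reads (adjusted p 0.179) nor in the authors' deposited table (DESeq2 adjusted p 0.224).

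Some leukocytes make class II constitutively, so leukocyte genes were listed as well. The pan-leukocyte gene PTPRC had 10.8 and 8.72 normalised counts with vehicle and 1.93 and 7.59 with octanoate, and MS4A1, TYROBP and AIF1 were at 0 in 3 of 4 libraries. LYZ (574 to 749 normalised counts over the 4 libraries), LAPTM5 (372 to 502), ITGAX (89.3 to 189) and FCER1G (44.6 to 92.1) were well above 0. The 14 markers summed to 1234 and 1150.0 with vehicle and 1482 and 1623 with octanoate. Of these 14, 6 passed the filter. By limma and by edgeR 4 were called higher: ITGAX (log2 difference 0.98), FCER1G (0.84), LAPTM5 (0.29) and LYZ (0.26). DESeq2 on the recovered reads called 2, ITGAX and FCER1G. Of the 4, the authors' deposited table called ITGAX but not FCER1G (DESeq2 adjusted p 0.0676), LYZ (0.1225) or LAPTM5 (0.158). LYZ lost its call without vehicle 2 or octanoate 2, and LAPTM5 without vehicle 1, vehicle 2 or octanoate 2. These 4 genes moved in the direction opposite to HLA-DRA and HLA-DMA, and their part in the class II values was not tested.

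By a measure of likeness, the genes whose profiles over the 4 libraries were closest to that of HLA-DRA were BANP, MRPL55 and TRIP6. Their Euclidean distances were 0.00495, 0.00828 and 0.00968 on centred log2 values, and 13482 genes whose mean reached 100 were candidates. Their log2 differences were -0.18, -0.17 and -0.17. No other class II member was among the closest: HLA-DQA1 ranked 462nd, CD74 754th and CIITA 883rd, and HLA-DRB1, at 8540th, was the farthest of the other 9 members. With 4 libraries such ranks describe these samples only.

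**Figure D5:**
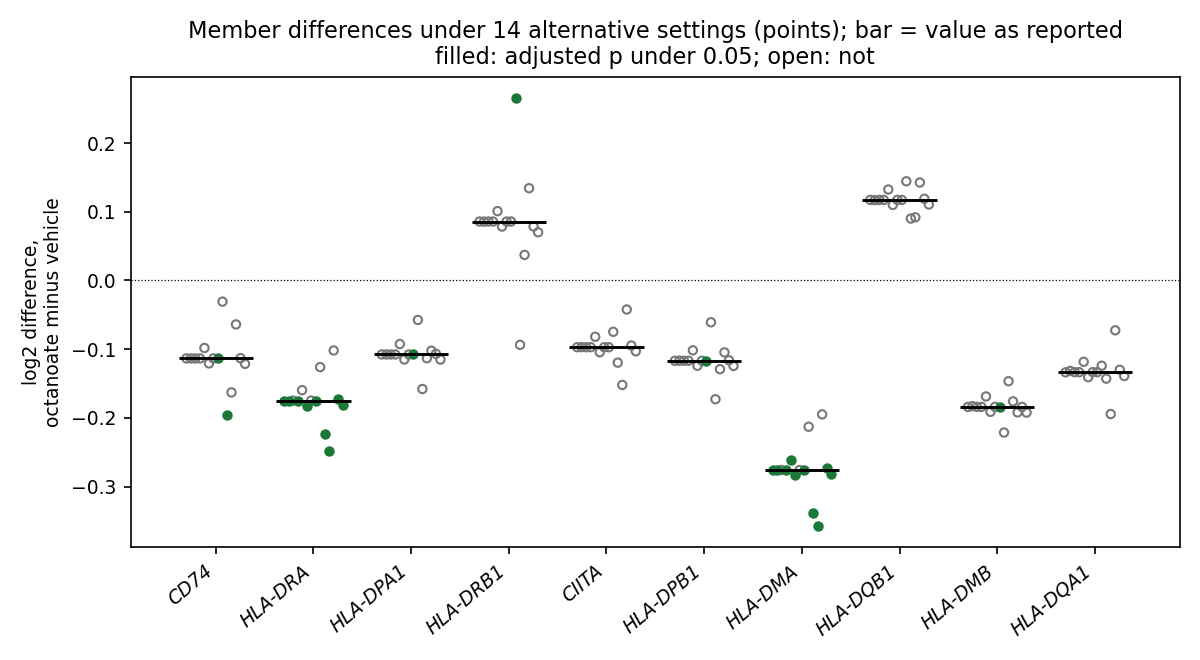
Log2 difference of each of the 10 genes as reported (bar) and under 14 alternative settings (points, filled where the adjusted p was under 0.05). HLA-DMA was called under 10 alternatives and HLA-DRA under 9, and HLA-DRB1 had values on both sides of 0.

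The positions of the 10 genes were taken from GENCODE 29 on GRCh38. Of the class II region on chromosome 6, HLA-DRA lies at 32439842 to 32445046, HLA-DRB1 at 32578769 to 32589848, HLA-DQA1 at 32628179 to 32647062, HLA-DQB1 at 32659467 to 32668383, HLA-DMB at 32934629 to 32941070, HLA-DMA at 32948613 to 32969094, HLA-DPA1 at 33064569 to 33080775 and HLA-DPB1 at 33075926 to 33087201. CD74 lies on chromosome 5 at 150401637 to 150412929 and CIITA on chromosome 16 at 10866222 to 10943021. Of the exon bases of CIITA, 11.6% overlap DEXI on the opposite strand. Another 2378 bases (11.5%) are shared with the gene model AC133065.3 on the same strand, which makes the counts of CIITA uncertain. For CD74, HLA-DRA, HLA-DRB1 and HLA-DQA1 no exon overlap with another gene was found. For the same genes, no blastn alignment of at least 100 bases with a transcript of another gene reached 95% identity as a whole. Stretches inside longer alignments of lower identity were not searched. Such alignments were those of HLA-DRB1 with HLA-DRB5 (92.4%) and HLA-DQA1 with HLA-DQA2 (89.9%).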

How the data were processed

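RNA of 2 vehicle and 2 octanoate libraries was extracted with a Zymo kit and prepared with the NEBNext Ultra kit, per the labels' protocols. The submitters' processing notes name bcl2fastq 2.17, Trim Galore, STAR 2.4, Picard, HTSeq 0.9.1, DESeq2 and hg38. The annotation and strand setting are not given in the sources used here.

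The deposited signal values are DESeq2 normalised counts, per the file name, which also holds the word PeakNorm without explaining it. All positive values (100% in each library) were whole multiples of the smallest within 0.01. The values were therefore taken as gene counts divided by 1 factor per library, and whole reads were recovered (67785956 to 78005035 per library). The authors' deposited comparison gives a log2 fold change, a test score, a p-value and an adjusted p-value per gene.

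limma 3.58.1 in R 4.3.3 was fitted to log2(normalised count + 1), with an intensity trend and treatment as the only term, for 20250 genes with a mean of at least 10. Fold changes are on that scale, which understates those of low genes. Alternatives were 14, including edgeR 4.0.16 and DESeq2 1.42.0 on recovered reads. With edgeR 6480 genes were called. The fits were tested on simulated data. Transcripts were compared with blastn 2.17.0. Replicates differed by more than sampling noise (chi-square per degree of freedom 4.77 for vehicle and 6.50 for octanoate).

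All 10 members were named. Of each other list up to 4 called genes with the smallest p were named, with 9 genes fixed by name (1 of them not reported here) and the 3 genes most like HLA-DRA. Genes named beyond these (RFXAP, RFXANK, NF-Y genes, CREB1, MARCH1, CD83, MIF, DDT, CD44, CXCR2, CXCR4, CD80, CD86, HLA-DRB5, HLA-DRB6, IFNG, SMARCA4, SOX10, TYR, PTPRC and other leukocyte markers) give the make-up of their lists. Members and lists were chosen with earlier results of these data known.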

Additional observations from a re-analysis of the deposited data

How the results depend on the processing

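Of 140 member values over 14 alternatives, 124 kept their direction and their side of the threshold. The count of members called lower, 2 as reported, was 0 with no filter and without a trend in the variance prior, 1 with TMM rescaling, and 6 with a replicate block. Of all genes tested in these 4 fits, 5.97%, 8.0%, 29.1% and 41.4% were called in either direction, against 29.9% as reported. With no filter, without a trend and with the replicate block, the count of members called lower moved in the same direction as the share of all genes. With TMM rescaling the count of members fell while the share of all genes hardly moved. Leaving out 1 library gave between 0 and 3 members lower and between 0 and 1 higher (HLA-DRB1 without vehicle 1). The count of called genes, 6048 as reported, was 2595 with no filter and 1625 without a trend; the cause was not tested. The replicate numbers are not explained in the labels and there are only 2 pairs. Deviations of libraries with the same number had a correlation of 0.126 over genes. With the replicate block the members called in addition were CD74, HLA-DPA1, HLA-DPB1 and HLA-DMB, and 8376 genes were called in all. The share of called genes that were higher, 54.1% as reported, was 67.4% without a trend, 64.3% without vehicle 1 and 61.5% with no filter.

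Signs reversed for genes that were not called. HLA-DRB1 had values between -0.094 and 0.27 when 1 library was left out, the lowest without vehicle 2. B2M had 0.0050 with TMM rescaling, 0.0045 without vehicle 1 and values between -0.077 and 0.056 over the fits without 1 library. HLA-DOB had between -0.50 and 0.28 and IFI30 between -0.19 and 0.21. Depth limits the last 2, with at most 25 reads in a library. A fit without 1 library assumes that the lone library of its group varies like the others.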
